A study of Mus musculus with 6 samples.

Results

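The genes described here are the 3 D cyclins Ccnd1, Ccnd2 and Ccnd3, their kinases Cdk4 and Cdk6, the INK4 inhibitors Cdkn2a, Cdkn2b and Cdkn2c, the CIP/KIP inhibitor Cdkn1b and their substrate Rb1. They were read through every probe set paired with exactly 1 gene symbol that is among these 10. That gave 26 of the 45037 probe sets that are not controls, for 10 of 18193 genes, with 1 to 7 probe sets a gene. The cells were GC1-Spg, a mouse line of spermatogonial origin, grown in medium with serum, and their RNA was read on arrays. The control group was transfected with 100 nM scrambled siRNA and the other group with 100 nM siRNA against mrhl, a noncoding RNA transcribed from within Phkb. RNA was taken after 44 h. Each group held 3 biological replicates, each on its own Affymetrix array, and the submitters describe 3 independent experiments. No untransfected cells were measured, so both groups share the transfection. The level of mrhl itself was not analysed here, so these values do not check the silencing. The line is known to have been immortalized with the SV40 large T antigen, a viral protein that binds Rb, and both groups carry it.

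D cyclins are the subunits through which growth factors, matrix attachment and Wnt signals reach the cell cycle. They bind Cdk4 or Cdk6, and the active kinase phosphorylates Rb, which then releases the E2F factors that switch on genes of DNA replication. INK4 proteins bind Cdk4 and Cdk6 and keep cyclin D away, while p27, the product of Cdkn1b, blocks cyclin E-Cdk2 and is also held by cyclin D-Cdk complexes. In the testis, cyclin D2 is known for its role around the transition of spermatogonia to differentiating types, and p27 and p18, the product of Cdkn2c, for restraining divisions. Large T is known to take Rb away from E2F. Neither large T nor its binding to Rb was measured here.

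All values are on the log2 scale as deposited, and the array medians lay within 0.11 of each other. A probe set was tested where its mean level was at or above the 25th percentile, 3.62, and all 26 were. Of the 26, 21 lay above the median level of 5.23. Levels of different probe sets depend on their probes and were not ranked against each other. Of 19 spermatogonial marker genes on the array, 14 were bright enough to be tested, and Dazl, Ddx4, Thy1, Dmrt1 and Sohlh1 were not. The tested ones had a mean log2 level of 5.24 to 5.50 on the scrambled arrays and 5.21 to 5.47 on the mrhl arrays. For 10 of 12 markers of myoid cells and fibroblasts those ranges were 8.15 to 8.73 and 8.52 to 8.78. The marker lists rest on different probe sets, so their levels do not show which cell type the line is nearer to. Of the 10 myoid and fibroblast genes 8 had positive log2 fold changes, as had 6264 of all 14885 genes tested. The 14 spermatogonial genes were 7 positive and 7 negative. The part of these markers in the results on the 26 probe sets was not tested.

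None of the 26 probe sets differed between mrhl siRNA and scrambled siRNA past an adjusted p of 0.05 (limma), where 0.00% of the 33778 probe sets tested did. At an unadjusted p under 0.05 there was 1 of 26, of Rb1, against 3.44% of all probe sets tested. Of the 26, 13 had positive log2 fold changes, as had 43.8% of all, and 13 had negative ones, as had 56.2% of all. Among the 10 genes, each through its brightest probe set, 6 were positive and 4 negative, with a median of 0.02, and over all 14885 genes the median was -0.04. The 95% intervals of these 10 differences lay between -0.95 and 0.72, so a 2-fold difference in either direction was outside each of them. Intervals of some probe sets other than the brightest of their gene did include one. These were 1417419_at of Ccnd1 (-1.15 to 1.21) and 1455956_x_at, 1448229_s_at, 1416123_at and 1416124_at of Ccnd2. With the replicate number as a block, which changed no call, 2 of 26 had an unadjusted p under 0.05, of Cdk6 and Rb1, against 10.1% of all tested. When the variance was also trended and robust, there were 6 of 26, from 5 genes, against 13.1% of all tested. These were 2 probe sets of Ccnd1 and 1 each of Ccnd2, Cdk4, Cdk6 and Rb1, none of which passed after adjustment, where 0.00592% of all tested did (limma). That of Rb1 was 1417850_at. The Rb1 probe set of the fits before it, 1444400_at, had an unadjusted p of 0.073 here (limma). The median standard error over all probe sets tested was 0.192.

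**Figure D1:**
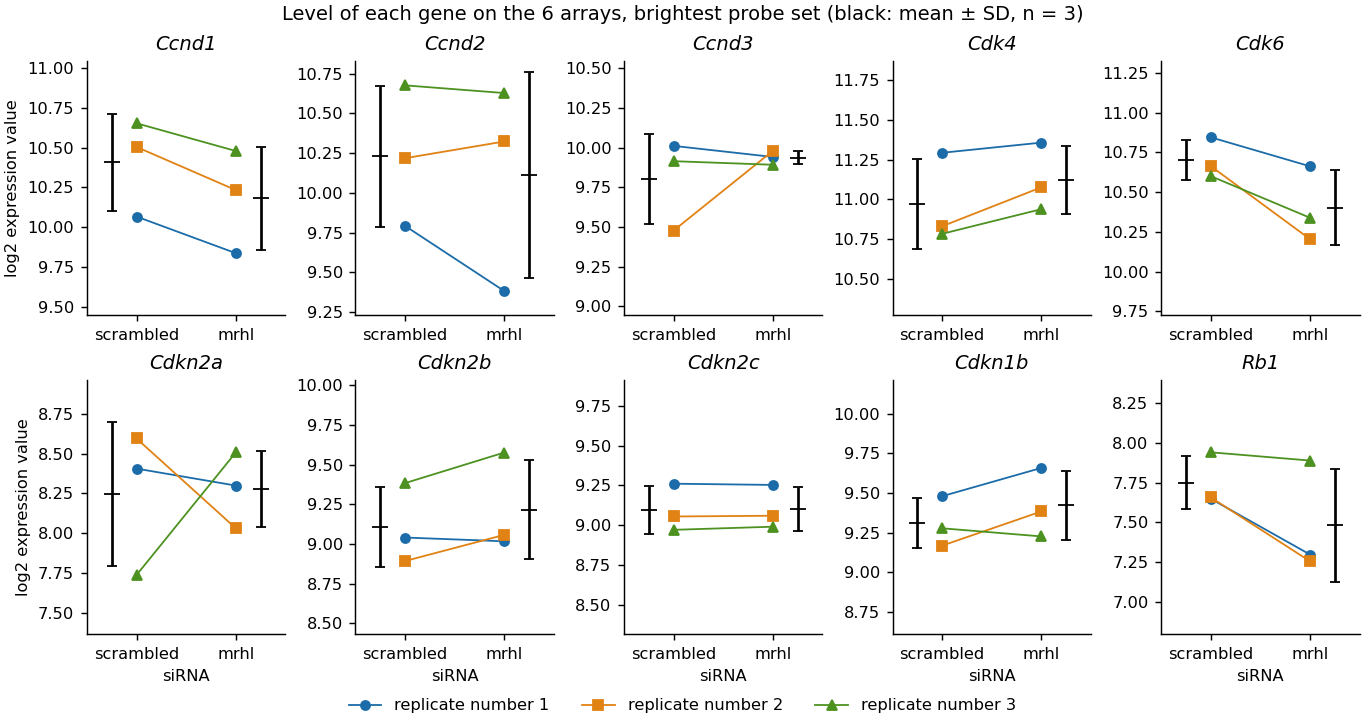
Log2 expression value (y axis, each panel 1.6 log2 units tall) of the brightest probe set of each gene after scrambled and mrhl siRNA (x axis). Coloured points joined by a line are the 2 arrays of a replicate number, and black marks are means ± SD of 3 arrays. The groups overlap in all 10 panels, and for Ccnd1, Ccnd2, Cdk4, Cdkn2c and Cdkn1b the blue points of number 1 lie apart from the rest.

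Ccnd1, at chr7:144929931-144939831 in GRCm38.p6, encodes cyclin D1, which is often used as a readout of beta-catenin activity. Its brightest probe set, 1417420_at, stood at 10.07, 10.50 and 10.65 on scrambled arrays 1 to 3 and at 9.84, 10.23 and 10.48 on mrhl arrays 1 to 3. The groups overlapped, but within each replicate number the mrhl array was the lower, with differences of -0.23, -0.27 and -0.17. The log2 fold change was -0.23 (SE 0.228, n = 3 per group), and it did not pass (limma, adjusted p = 0.965). A second probe set, 1448698_at, had pair differences of -0.22, -0.20 and -0.30 and a log2 fold change of -0.24 (SE 0.188). The third, 1417419_at, gave no such pattern, with 0.37, -0.01 and -0.27 in the pairs and a log2 fold change of 0.03 (SE 0.504). Its control values ran from 8.42 to 10.27, the widest spread of the 26 probe sets in that group.

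Ccnd2, at chr6:127125162-127152188, encodes cyclin D2 and had the most probe sets, 7. Its brightest, 1434745_at, stood at 9.79, 10.22 and 10.68 after scrambled siRNA and at 9.38, 10.32 and 10.63 after mrhl siRNA. The pair differences of -0.41, 0.11 and -0.05 lay on both sides of 0. The log2 fold change was -0.12 (SE 0.357) and did not pass (limma, adjusted p = 0.981). Without mrhl siRNA replicate 1 it was 0.25. All 7 probe sets had negative log2 fold changes, from -0.43 (SE 0.483) for 1455956_x_at to -0.11 (SE 0.415) for 1416124_at, and all 7 kept that sign under quantile normalization and under common array medians. Probe sets of a gene share its RNA, so 7 equal signs are not 7 independent results. A name ending in _x_at or _s_at, as for 2 of the 7, marks probes that other transcripts may also bind.

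Ccnd3, at chr17:47505051-47599689, encodes cyclin D3, the D cyclin of many differentiating cells. Its brightest probe set, 1415907_at, stood at 10.01, 9.48 and 9.91 after scrambled siRNA and at 9.94, 9.98 and 9.89 after mrhl siRNA. Scrambled array 2 was low and the other 5 lay within 9.89 to 10.01. The log2 fold change was 0.14 (SE 0.176; limma, adjusted p = 0.965), and without scrambled siRNA replicate 2 it was -0.03. A dimmer probe set, 1444323_at, stood at 4.93, 4.94 and 4.64 against 4.96, 5.37 and 5.03. Its groups did not overlap, the mrhl arrays being higher, as in 1 of 26 probe sets here and 2.58% of all tested. Its level was below that of the median probe set, and its log2 fold change of 0.29 (SE 0.172) did not pass (limma, adjusted p = 0.965). The third probe set, 1438805_at, had 0.03 (SE 0.355).

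The kinase genes had opposite signs in their brightest probe sets. Cdk4, at chr10:127063535-127067288, encodes the kinase partner of D cyclins found in most dividing cells. Its brightest probe set, 1422441_x_at, stood at 11.29, 10.83 and 10.78 after scrambled siRNA and at 11.36, 11.08 and 10.94 after mrhl siRNA. By the _x_at in its name, its probes may also bind other transcripts. The mrhl array was the higher in each pair, by 0.06, 0.25 and 0.16, although the groups overlapped. As a log2 fold change this gave 0.15 (SE 0.196; limma, adjusted p = 0.965), a 1.11-fold difference. Probe sets 1422439_a_at and 1422440_at had 0.25 (SE 0.212) and 0.13 (SE 0.221), and all 3 were positive under each scaling. In 1422440_at the pair of number 1 differed by only 0.00032.

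Cdk6, at chr5:3341004-3531008, encodes the second kinase of D cyclins, and its probe sets disagreed. The brightest, 1455287_at, stood at 10.85, 10.66 and 10.60 after scrambled siRNA and at 10.66, 10.20 and 10.34 after mrhl siRNA. The groups overlapped through mrhl array 1 alone, which lay above scrambled array 3 and level with scrambled array 2, and the pair differences were -0.18, -0.46 and -0.26. The log2 fold change was -0.30 (SE 0.170), the lowest among the 10 genes as read, and it did not pass (limma, adjusted p = 0.965). With the replicate block its 95% interval was -0.60 to -0.0035 (limma, adjusted p = 0.493). The almost equally bright probe set 1435338_at stood at 10.74, 10.25 and 10.30 against 10.59, 10.46 and 10.17. That gave a log2 fold change of -0.02 (SE 0.193), which became positive under quantile normalization. The dim 1460291_at had 0.10 (SE 0.231). With the 3 averaged, the value for Cdk6 was -0.07.

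The bases before an annotated start of Cdk4 and of Cdk6 are shown because these are the kinase genes whose brightest probe sets differed in sign, and because an E-box, the site bound by Myc with Max, is a known element of the Cdk4 promoter. Each line gives 250 bases, 5′ to 3′ on the plus strand, from RefSeq on GRCm38.p6, with every match to CACGTG in capitals. Cdk4 is chr10:127063285-127063534 and Cdk6 is chr5:3343643-3343892. The Cdk6 window lies inside the span given above for that gene, while the Cdk4 window ends just before its gene's span.
Cdk4: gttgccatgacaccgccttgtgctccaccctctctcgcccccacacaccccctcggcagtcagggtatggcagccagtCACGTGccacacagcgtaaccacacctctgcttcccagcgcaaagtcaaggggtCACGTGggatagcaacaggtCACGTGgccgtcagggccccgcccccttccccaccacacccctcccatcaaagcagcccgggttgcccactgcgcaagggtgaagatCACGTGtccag
Cdk6: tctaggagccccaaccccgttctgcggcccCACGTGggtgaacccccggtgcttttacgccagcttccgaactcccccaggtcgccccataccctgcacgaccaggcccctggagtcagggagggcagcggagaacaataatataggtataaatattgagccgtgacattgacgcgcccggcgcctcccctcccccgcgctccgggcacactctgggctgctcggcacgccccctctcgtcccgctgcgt
The motif is its own reverse complement, so both strands were read at once. Counted from the annotated start, the Cdk4 window holds 4 matches, at -172, -118, -98 and -11, and the Cdk6 window holds 1, at -220. Of 32851 such windows over all genes, 6.02% hold at least 1 match and 0.0213% hold at least 4. Windows were at hand for 7 of the 10 genes, and those of Ccnd3, Cdkn2a, Cdkn2b, Cdkn2c and Cdkn1b held no match in these 250 bases. A match describes the letters and is not evidence of binding.

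The 3 INK4 genes, each read through a single probe set, had log2 fold changes from 0.0055 to 0.11. Cdkn2a, at chr4:89274473-89294619, gives 2 unrelated proteins from 2 first exons, the kinase inhibitor p16 and the p53 regulator ARF. The RefSeq windows place its starts at 89294619 and 89282192 on the minus strand, and the probe set, 1450140_a_at, was read for the gene without telling the transcripts apart. It stood at 8.41, 8.60 and 7.74 after scrambled siRNA and at 8.30, 8.03 and 8.51 after mrhl siRNA. Scrambled array 3 was the lowest of the 6, and the pair differences of -0.11, -0.56 and 0.77 had no common direction. As a log2 fold change this gave 0.03 (SE 0.251; limma, adjusted p = 0.992), and without scrambled siRNA replicate 3 it was -0.22.

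Cdkn2b, at chr4:89306289-89311032 beside Cdkn2a, encodes p15, an INK4 inhibitor known as a target of TGF-beta. It stood at 9.04, 8.89 and 9.38 after scrambled siRNA and at 9.02, 9.06 and 9.58 after mrhl siRNA. Both arrays of number 3 were the highest, and the groups overlapped. Its log2 fold change was 0.11 (SE 0.212; limma, adjusted p = 0.973).

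Cdkn2c, at chr4:109660876-109666756, encodes p18, an INK4 inhibitor of both kinases. It stood at 9.26, 9.06 and 8.97 after scrambled siRNA and at 9.25, 9.06 and 8.99 after mrhl siRNA. The pair differences were -0.0077, 0.0046 and 0.02, so arrays of equal number were nearly the same while the numbers differed by up to 0.28. The group means gave 0.0055 (SE 0.153; limma, adjusted p = 0.999), with 95% bounds of -0.35 and 0.36.

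Cdkn1b, at chr6:134920401-134925525, encodes p27, which holds cells out of the cycle when growth signals are low. Its brightest probe set, 1434045_at, stood at 9.48, 9.17 and 9.28 after scrambled siRNA and at 9.66, 9.38 and 9.23 after mrhl siRNA. The groups overlapped and the pair of number 3 differed in sign from the others, at -0.05 against 0.18 and 0.22. Between the group means lay 0.11 (SE 0.170; limma, adjusted p = 0.965). The dim 1419497_at had 0.02 (SE 0.209).

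Rb1, at chr14:73192858-73325951, encodes the retinoblastoma protein, and both of its probe sets were negative. The brighter, 1417850_at, stood at 7.65, 7.66 and 7.94 after scrambled siRNA and at 7.30, 7.26 and 7.89 after mrhl siRNA. The mrhl array was the lower in each pair, with differences of -0.35, -0.40 and -0.05, and mrhl array 3 lay among the controls. Between the group means lay -0.27 (SE 0.209; limma, adjusted p = 0.965). The dim probe set 1444400_at stood at 4.09, 4.33 and 4.29 against 3.76, 3.75 and 3.72. Its groups did not overlap, the mrhl arrays being lower, as in 1 of 26 probe sets here and 5.82% of all tested. Its log2 fold change was -0.49 (SE 0.138), with an unadjusted p of 0.0083 that ranked 126 of 33778 and an adjusted p of 0.965 (limma). With the replicate block and a trended, robust variance its unadjusted p was 0.073 (limma). The mrhl values lay just above 3.62, the level under which probe sets were left out, and no detection calls were at hand to place them above background. By pairs, 4 of the 26 probe sets were higher in 3 of 3 pairs (14.1% of all tested) and 8 were lower in 3 of 3 (23.4% of all tested).

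**Figure D2:**
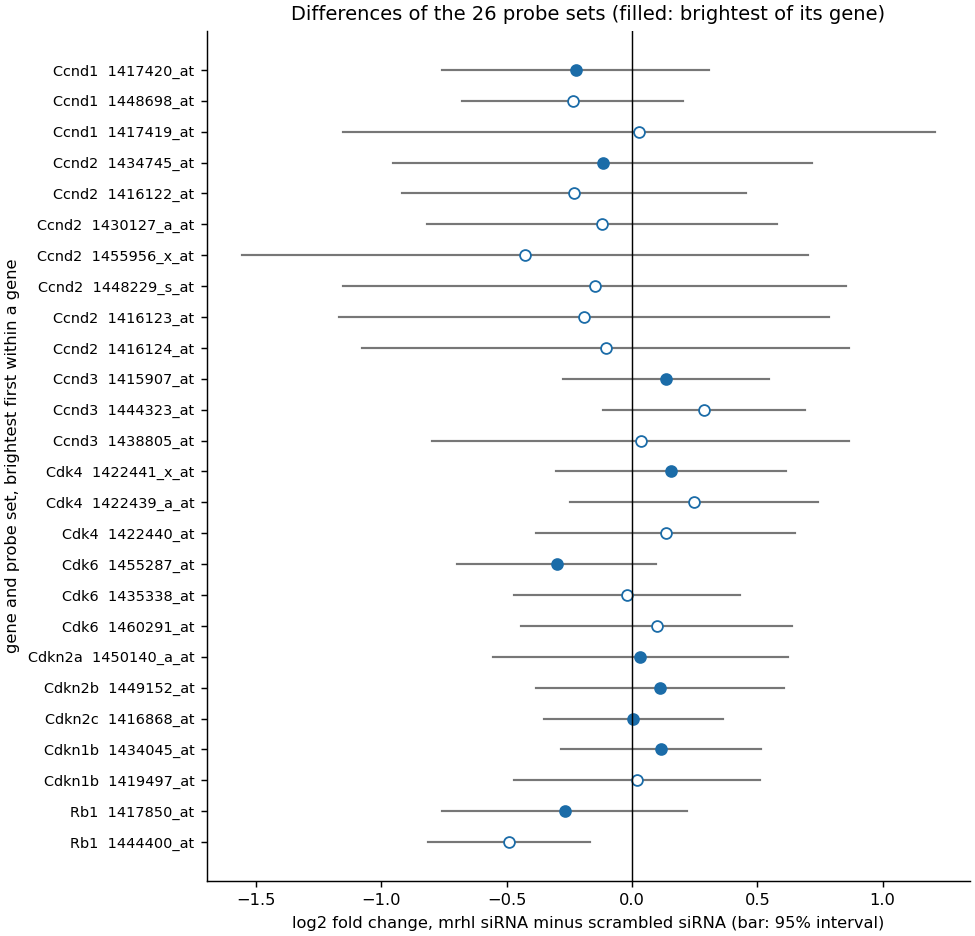
Log2 fold change of each of the 26 probe sets (x axis, points) with its 95% interval from limma (bars), by gene and probe set (y axis). Filled points mark the brightest probe set of a gene. The interval of the dim Rb1 probe set, -0.81 to -0.17, is the only one drawn that leaves out 0, before adjustment. With the replicate block, not drawn, the interval of Cdk6 1455287_at leaves it out too, at -0.60 to -0.0035.

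In every probe set of Ccnd1, Ccnd2, Cdk4 and Cdkn2c the arrays of number 1 lay apart from the others. In all 3 probe sets of Ccnd1 and all 7 of Ccnd2, both arrays of number 1 lay below the other 4 arrays, whichever siRNA was used. With 1 dim probe set of Cdk6 these were 11 of 26, from 3 genes, against 13.2% of all probe sets tested. Probe sets of a gene share its RNA, so the 11 are not independent results. In all 3 probe sets of Cdk4 both arrays of number 1 lay above the other 4, as they did in 6 of 26 and in 13.4% of all tested. The rest of these 6 were the Cdkn2c probe set, 1434045_at of Cdkn1b and 1435338_at of Cdk6. These counts for Ccnd1, Ccnd2 and Cdk4 were the same under quantile normalization and common array medians.

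Averaged over the 2 arrays of each number, Ccnd2 in 1434745_at stood at 9.59 in number 1, 10.27 in number 2 and 10.65 in number 3. That range of 1.07 on the log2 scale was reached or passed by 4.34% of all probe sets tested, whose median range was 0.365. In the other 6 probe sets of Ccnd2 the range ran from 0.84 to 1.50. For Ccnd1 in 1417420_at the means were 9.95, 10.37 and 10.57, a range of 0.62, and in 1417419_at they were 8.61, 9.74 and 10.14, a range of 1.53. The shares of all probe sets that reached these ranges were 20.3% and 1.17%, and the third probe set, 1448698_at, had a range of 0.45, reached by 37.1%. Cdk4 in 1422441_x_at went the other way, at 11.32, 10.95 and 10.86, a range of 0.46 that 35.6% of all probe sets reached. Ranges of about that size were also found where number 1 did not lie apart, at 0.50 for Cdkn2b and 0.46 for Rb1 in their brightest probe sets. In those of Cdk6, Cdkn1b, Cdkn2c, Ccnd3 and Cdkn2a the range was 0.32, 0.32, 0.28, 0.25 and 0.23.

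A test of the replicate number, chosen after seeing the data, was run in the fit that holds both number and siRNA. None of the 26 probe sets passed (limma, smallest adjusted p = 0.124), nor did any of all tested (0.00%). At an unadjusted p under 0.05 there were 16 of the 26, from 6 genes, against 23.1% of all tested. With a trended and robust variance model 13 of 26 passed, against 8.54% of all tested: 2 of Ccnd1, 7 of Ccnd2, 3 of Cdk4 and that of Cdkn2b, the smallest adjusted p being 0.0028 (limma). With only the brighter part of the array tested, 7 of 21 passed, from 2 genes, against 5.95% of all. The call thus depends on the variance model and on the level filter, and probe sets of a gene are not independent. In the same order of numbers, the mean log2 level of the 20 E2F target genes was 10.35, 10.37 and 10.48, that of the spermatogonial markers 5.48, 5.40 and 5.23, and that of the myoid and fibroblast markers 8.62, 8.34 and 8.69. Their part in these differences was not tested, and culture, RNA preparation and array cannot be told apart.

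**Figure D3:**
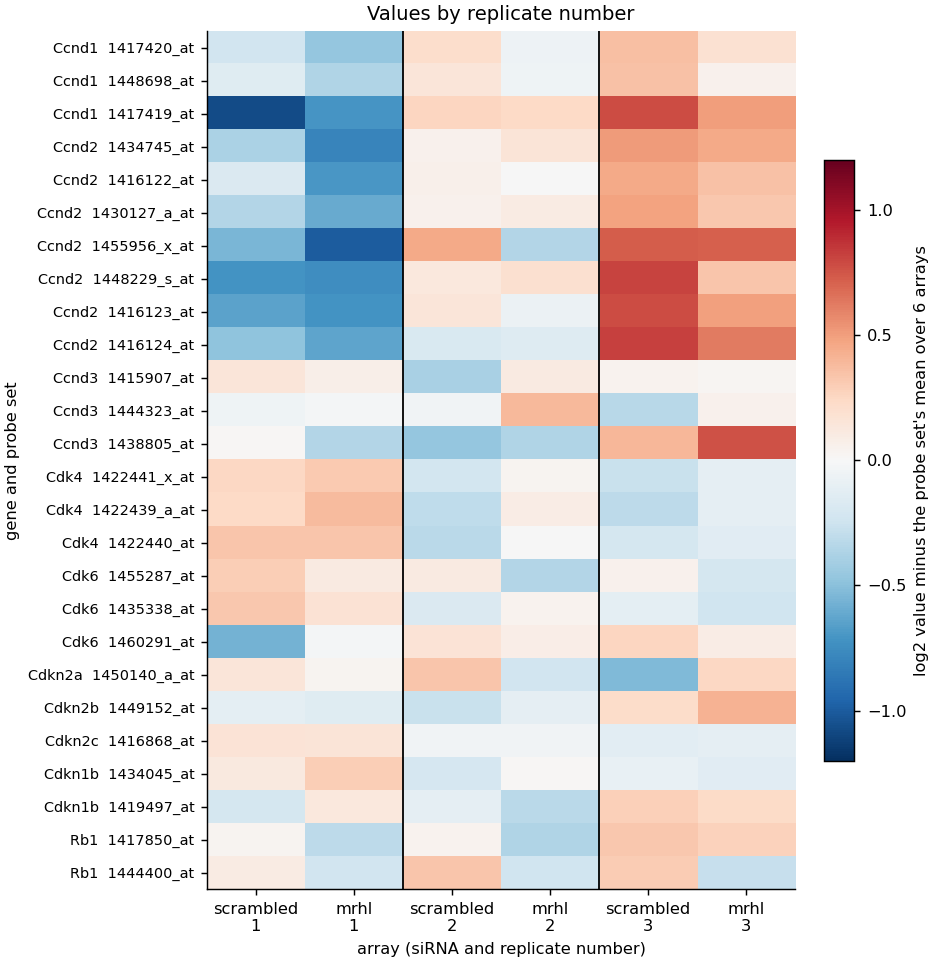
Log2 value of each of the 26 probe sets minus its own mean over the 6 arrays (colour), by probe set (y axis) and array (x axis, arrays of equal replicate number side by side between black lines). The 10 probe sets of Ccnd1 and Ccnd2 are blue in both arrays of number 1 and red in both of number 3, and the 3 of Cdk4 are red in number 1.

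Among the other 14884 genes, those whose centred values over the 6 arrays lay nearest to Ccnd1 were Fam20b, Krt16 and Fer1l6. Their root mean square differences from it were 0.029, 0.035 and 0.040, where Ccnd1's own values had a root mean square of 0.281 about their mean. Nearest to Cdk6 were Baz2b, Rufy1 and Zp3, at 0.037, 0.040 and 0.054, with 0.216 for Cdk6 itself.

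Of the other genes of the pathway none passed in either direction (limma, adjusted p = 0.965 for each gene named next, unless given). The other CDK inhibitors were 2 positive and 1 negative, with 0.14 (SE 0.255; adjusted p = 0.973) for Cdkn1a, the p21 gene, and -0.06 (SE 0.170; adjusted p = 0.980) for the INK4 gene Cdkn2d. The other probe set of Cdkn1a had -0.07. Of the other pocket protein genes and the E2F and DP genes, 8 of 12 were negative, where 57.9% of all genes tested were. Their median was -0.11 against -0.04 for all genes. Among them the repressor-type factor gene E2f4 had 0.53 (SE 0.253), from 6.82 ± 0.33 to 7.35 ± 0.40 (SD, n = 3). Its pairs gave 0.52, 1.10 and -0.03, so number 3 did not share the difference. Rbl1, which encodes the pocket protein p107, had -0.20 (SE 0.169), and its other probe sets ran from -0.21 to 0.33.

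The 6 genes of the MuvB core and B-Myb, which work with pocket proteins and E2F in the DREAM complex, were 3 positive and 3 negative. Lin54 and Lin9 had -0.27 (SE 0.188) and -0.27 (SE 0.194). Of 9 tested genes of cyclins E and A, Cdk2 and the CDK-activating kinase, 8 were negative, where 57.9% of all genes tested were. Their median was -0.15. Ccne1, the cyclin E1 gene and an E2F target, stood at 7.74 ± 0.23 and 7.46 ± 0.08 (SD, n = 3), without overlap, a log2 fold change of -0.28 (SE 0.163). Its other probe set had -0.08. Also without overlap, but with the mrhl arrays higher, was Cks1b, named after its value was seen, at 0.11 (SE 0.130). The other probe set of Cks1b had -0.05. Ccnh, the cyclin of the CDK-activating kinase, had -0.35 (SE 0.215), and its pairs were 0.02, -0.98 and -0.09, so number 2 carried most of it.

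The E2F targets of S phase were 18 negative and 2 positive of 20 tested, with a median of -0.06 against -0.04 for all genes, 57.9% of which were negative. The medians by pair were -0.0020, -0.18 and -0.08, and those of all genes -0.02, -0.08 and -0.03. The replication licensing genes Cdc6 and Mcm5 had -0.23 (SE 0.171) and -0.19 (SE 0.150). The other probe sets of Mcm5 ran from -0.48 to 0.04. In Cdc6 the pair of number 1 differed by -0.0066 and that of number 2 by -0.47.

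Genes that act on the turnover of D cyclins and p27 were 4 positive and 11 negative of 15, with a median of -0.11. Of all genes tested 57.9% were negative. The kinase gene Dyrk1a had -0.26 (SE 0.148), and Cul1, the scaffold of SCF ubiquitin ligases, -0.22 (SE 0.155). Of 15 tested genes that control the INK4 locus 7 were positive and 8 negative. The Polycomb genes Ring1 and Bmi1 had 0.60 (SE 0.317) and -0.25 (SE 0.162). All 3 tested genes around ARF were negative in their brightest probe sets, with -0.13 (SE 0.145) for Npm1 and -0.07 (SE 0.189; adjusted p = 0.981) for Mdm4. The other probe set of Npm1 had 0.03, and those of Mdm4 ran from -0.50 to 0.15. Trp53 had no probe set paired with it alone.

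Of 15 tested genes upstream of the D cyclin and p27 genes 6 were positive and 9 negative, where 57.9% of all genes tested were negative. Stat3, a transcription factor activated by cytokines, stood at 10.23 ± 0.11 and 10.61 ± 0.15 (SD, n = 3) without overlap, and its pairs gave 0.28, 0.43 and 0.42. Its log2 fold change was 0.38 (SE 0.149), while its other 3 probe sets ran from -0.10 to 0.15. Jun, a subunit of AP-1, had 0.32 (SE 0.157), also without overlap, and its other probe set had -0.13. Another 2 genes of the list had groups apart with the mrhl arrays lower, and are named after their values were seen. These were the kinase genes Braf, with -0.27 (SE 0.141), and Pik3ca, with -0.21 (SE 0.132). Their other probe sets ran from -0.42 to 0.20 for Braf and from -0.40 to -0.01 for Pik3ca. Over all 14885 genes, 343 had groups apart with the mrhl arrays higher and 913 with them lower.

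**Figure D4:**
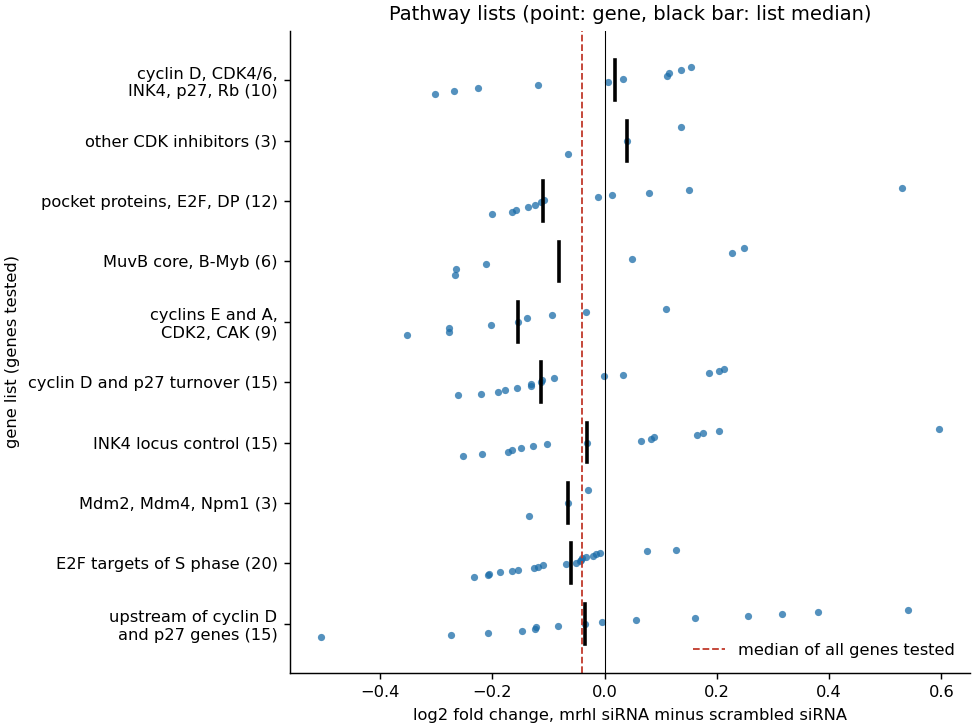
Log2 fold change (x axis) of each tested gene, through its brightest probe set, by pathway list (y axis, number of genes in brackets). Black bars are list medians, from -0.15 for cyclins E and A with their kinases to 0.04 for the other CDK inhibitors, and the dashed line is the median of all genes, -0.04.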

How the data were processed

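Expression in 6 GC1-Spg cultures was measured on 1-colour Affymetrix arrays. The deposited values are log2 expression values, 1 per probe set and array. They were made with GCOS and PLIER, as the submitters' processing notes name them, and the sources used here give neither their versions nor the normalization. Since the range of the values is that of logarithms, the offset of 16 planned for linear values was not used.

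Of 45101 rows, 64 controls were left out. The probe table paired 34945 probe sets with 1 symbol and 932 with several, and 9160 are unnamed here. Groups were compared with limma 3.58.1 (lmFit, eBayes; R 4.3.3), mrhl minus scrambled siRNA, on the 33778 probe sets at or above the 25th percentile of mean level, with Benjamini-Hochberg adjustment over all of them and a threshold of 0.05. The fit was tested on simulated data with independent noise on each array and no differences between replicate numbers. That test does not cover arrays that share a replicate number, as here. Genes were read through their brightest probe set. Equal replicate numbers were read as pairs, since deviations from the group means correlated at 0.534, 0.201 and 0.567 and the design text names independent experiments. Those of unequal numbers ran from -0.518 to 0.0684. Deviations from a group mean sum to 0, which pushes these down where the equal ones are positive, so they add no separate support. Replicates may share sources the labels do not give, and p-values cover only the spread between these arrays. Gene positions and promoter windows are RefSeq's on GRCm38.p6, and the array's probes were not mapped.

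The genes, lists and tests were chosen with earlier results of these data known. Named were all 26 probe sets, the 2 genes of smallest p in each of 9 pathway lists (up to 4 where any passed), and the 3 genes nearest in pattern to Ccnd1 and to Cdk6. Alternatives were other scalings, filters, variance models, array weights, a replicate block, left-out arrays and mean probe sets. Figures were drawn with matplotlib 3.10.9.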

Additional observations from a re-analysis of the deposited data

How the results depend on the processing

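Over 18 settings the 10 genes' differences gave 177 values, of which 162 kept their sign and their side of the threshold, and 15 reversed. Ccnd1, Cdk4, Cdk6 and Rb1 reversed in none, but with arrays left out they ran from -0.40 to -0.05, 0.04 to 0.32, -0.43 to -0.20 and -0.47 to -0.16. No probe set of the 26 passed in any setting run. The replicate block changed no call of these genes (limma, smallest adjusted p of the 26 = 0.487; 0.00% of all passed). With the block and a trended, robust variance 2 probe sets of the series passed, neither among the 26, of which 6 had an unadjusted p under 0.05. With array weights Cdkn2b had -0.0048. With arrays left out, the difference ran from -0.38 to 0.25 for Ccnd2, from -0.046 to 0.24 for Ccnd3, from -0.34 to 0.33 for Cdkn2a, from -0.068 to 0.25 for Cdkn2b, from -0.071 to 0.088 for Cdkn2c and from -0.0035 to 0.21 for Cdkn1b. The 2 probe sets with groups apart became 1 with common array medians, 0 when only levels above the median were tested, which leaves both out, and 2 to 9 with arrays left out, where fewer values need to be apart. The 9 were found without both arrays of number 1, 8 without scrambled siRNA replicate 1 and 5 without both arrays of number 3. No share over all probe sets tested is given for these settings, so the counts are not read as a result about the 26. By replicate number, 0 of 26 passed under quantile normalization, common array medians, array weights and no filter (limma), 13 with a trended, robust variance and 7 of 21 above the median level. The cause of the other moves was not tested. The number of arrays and the dim level of 5 probe sets limit the precision.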
